A study of Mus musculus with 8 samples.

Results

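The HOX cluster genes are the mouse genes Hoxa, Hoxb, Hoxc and Hoxd followed by a position number. They were taken as every row of the count tables with such a symbol, which gave 38 of the 39179 genes listed, 11 in the Hoxa cluster, 10 in Hoxb, 9 in Hoxc and 8 in Hoxd. Hoxd4 is not analysed here. The cells came from pancreatic ductal adenocarcinoma (PDAC) of the iKPC mouse model, as 4 numbered cell lines, and RNA sequencing gave 1 library of each line with each USP21 construct. The WT-USP21 group held 4 libraries, 1 from each of lines 1 to 4, and the ED-USP21 group held the other 4. All 8 libraries carried a doxycycline-responsive oncogene transgene, ROSA_rtTA (the doxycycline-dependent activator that drives it) and p48-Cre (a recombinase under the promoter of Ptf1a, active in pancreatic progenitors and acinar cells). Both groups of line 1 and of line 2 are labelled FVB/C57Bl6, and both groups of line 3 and of line 4 are labelled C57BL/6. USP21 is a deubiquitinating enzyme. ED is not spelled out in the labels, the doxycycline state and age of the mice are not given in the sources used here, and cells lacking a construct were not analysed here. Both groups are described by the submitters as overexpressing USP21, which cannot be set against an endogenous level here. The line numbers are the replicates. With 1 library per construct in a line, a difference within 1 line had no replicate check.

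HOX proteins are homeodomain transcription factors that give cells their position along the body axis. In each cluster, genes at low position numbers are expressed toward the head and genes at high numbers toward the tail and in the distal limb, genital tract and hindgut, and adult cells often keep a HOX pattern of the place they came from. The pancreas arises from the foregut, whose epithelium is known for low HOX levels beside those of the surrounding mesenchyme. The positions are grouped below as anterior (1 to 4), central (5 to 8) and posterior (9 to 13).

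Depth ranged over the libraries from 72828184 to 107551210 gene counts, and 11.4% to 20.6% of counts fell in no gene. Keratins and other epithelial markers were high in both groups (in CPM, counts scaled to a common library total, 8 markers summed to 7685 to 13320 CPM with WT-USP21 and 8140 to 11190 CPM with ED-USP21), while Epcam stood at 5.34 CPM with WT-USP21 and 3.40 CPM with ED-USP21 in line 1 and at most 0.314 CPM in the other lines. Of the fibroblast markers, Dcn, Lum and Thy1 were at 0 in each library and Pdgfrb was at most 0.0348 CPM. Pdgfra was at 3.35 to 5.82 CPM, Col1a1 at 0.567 to 4.80 CPM and Col1a2 at 0 to 5.33 CPM, levels in the range of the HOX genes below. Of the islet markers, 4 of 5 were at 0. Usp21 itself was lower in the WT-USP21 library than in the ED-USP21 library of each line, at 147, 944, 539 and 941 CPM against 1657, 3132, 1661 and 2721 CPM in lines 1 to 4. Line 1 stood apart from the other lines: 3458 to 3936 of 16192 genes were 2-fold or more apart between the WT-USP21 libraries of line 1 and of another line, against 717 to 1467 between those of any pair among lines 2 to 4. Lines 2 and 4 were the closest pair, at 717 genes with WT-USP21 and 703 with ED-USP21.

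HOX transcripts were a small part of each library. The 38 genes together held 1587, 2656, 1232 and 1731 reads in the WT-USP21 libraries of lines 1 to 4, against 6504, 1769, 1114 and 1250 reads in the ED-USP21 libraries, and values below follow the same order of lines. Scaled to the library, their summed level was 17.2, 26.4, 12.9 and 20.1 CPM with WT-USP21, against 62.6, 23.9, 11.98 and 16.1 CPM with ED-USP21. The ED-USP21 library of line 1 was thus the highest of the 8. Hoxb1, Hoxc11, Hoxc12, Hoxd12 and Hoxd13 had 0 reads in every library, and Hoxc10, Hoxd10 and Hoxd11 never passed 3 reads, the floor used here. The filter on low counts left 19 members for testing, 8 of Hoxa, 8 of Hoxb, Hoxc6, and Hoxd3 and Hoxd8. The other 19 are described by their reads.

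**Figure D1:**
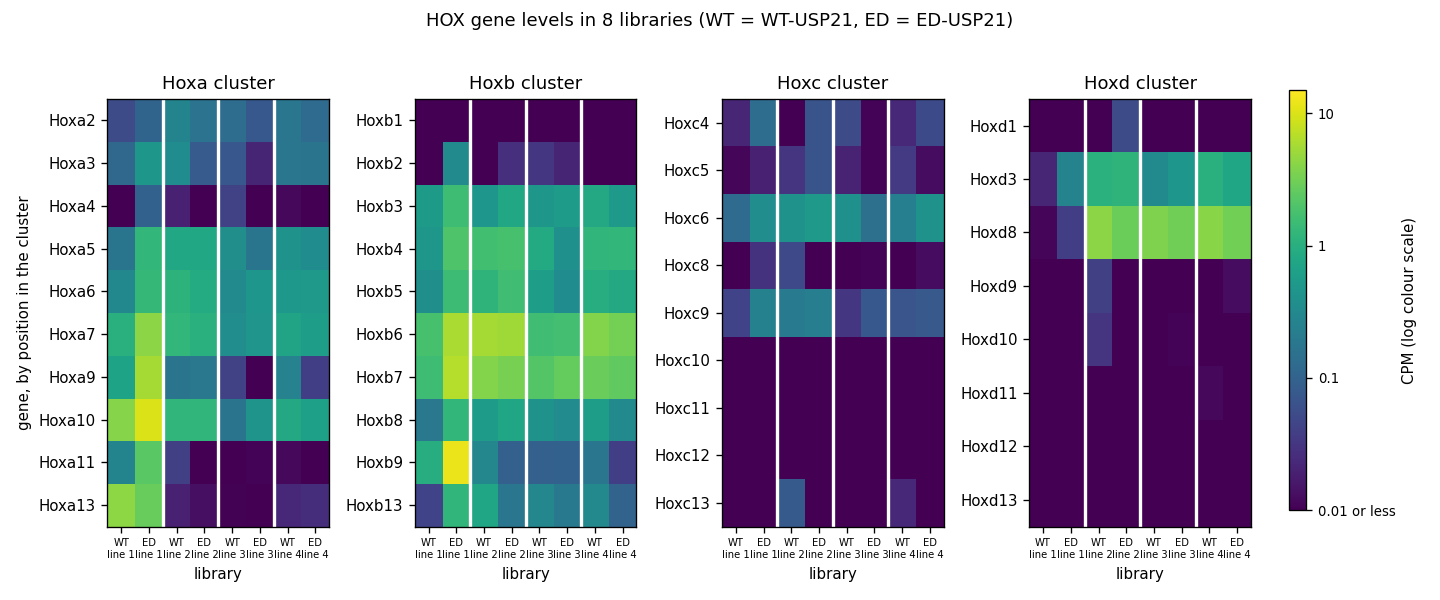
Level of 37 of the 38 HOX genes in CPM on a log colour scale, in 1 panel per cluster, with genes ordered by position down the page and the 8 libraries side by side (WT-USP21 left of ED-USP21 in each line). Hoxa13 is bright in line 1 alone, Hoxd8 is dark in line 1 alone, and Hoxb6 and Hoxb7 are bright in all 4 lines. Hoxa11 is bright in the ED-USP21 library of line 1 (2.33 CPM) and fainter in its WT-USP21 library (0.272 CPM).

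A member was counted as expressed in a line when it reached 1 CPM in both of the line's libraries. By that rule 5 were expressed in line 1 (Hoxa7, Hoxa10, Hoxa13, Hoxb6 and Hoxb7), 8 in line 2 (Hoxa7, Hoxa10, Hoxb4, Hoxb5, Hoxb6, Hoxb7, Hoxd3 and Hoxd8), 3 in line 3 (Hoxb6, Hoxb7 and Hoxd8) and 4 in line 4 (Hoxb4, Hoxb6, Hoxb7 and Hoxd8). Hoxb6 and Hoxb7 were the 2 expressed in each line, and 29 of the 38 were expressed in none. Lines 3 and 4 held no Hoxa gene at that level, and line 1 held no Hoxd gene. At 0.5 CPM in both libraries line 4 gained Hoxa7 and Hoxa10, while line 3 still held no Hoxa gene. These counts follow the threshold: with 0.5 CPM they were 8, 12, 3 and 9 in lines 1 to 4, and with 1 CPM in either library they were 15, 9, 3 and 5. With 1 TPM in both libraries (TPM being reads per exon length, scaled to a common total) they were 7, 8, 4 and 5. Hoxa6, with an exon length of 874 bases, was then expressed in each line, lines 3 and 4 included.

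The use of posterior genes differed between line 1 and the other lines. Genes at positions 9 to 13 made up 59.8% of HOX reads in the WT-USP21 library of line 1 (95% exact binomial interval 57.3% to 62.2%) and 55.0% in its ED-USP21 library. In lines 2 to 4 the same share was 10.9%, 4.95% and 8.49% with WT-USP21, against 8.14%, 6.91% and 5.68% with ED-USP21. Central genes held 32.2% with WT-USP21 and 36.2% with ED-USP21 in line 1, and 71.2% to 78.6% in the libraries of lines 2 to 4. The share of the Hoxd cluster was 0.189% (0.0390% to 0.551%) with WT-USP21 and 0.477% with ED-USP21 in line 1, and 17.3% to 30.5% in those of the other lines. Both libraries of line 1 were outside the range of the other 6 on posterior share and on Hoxd share. They lay apart from each other on the remaining clusters: Hoxa held 64.5% with WT-USP21 and 45.9% with ED-USP21 in line 1, and 15.1% to 22.3% in the other lines. Hoxb held 34.1% with WT-USP21 and 52.3% with ED-USP21 in line 1, the second of which is inside the range of the other lines, 50.6% to 58.2%. Intervals and floors here cover counting error only.

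**Figure D2:**
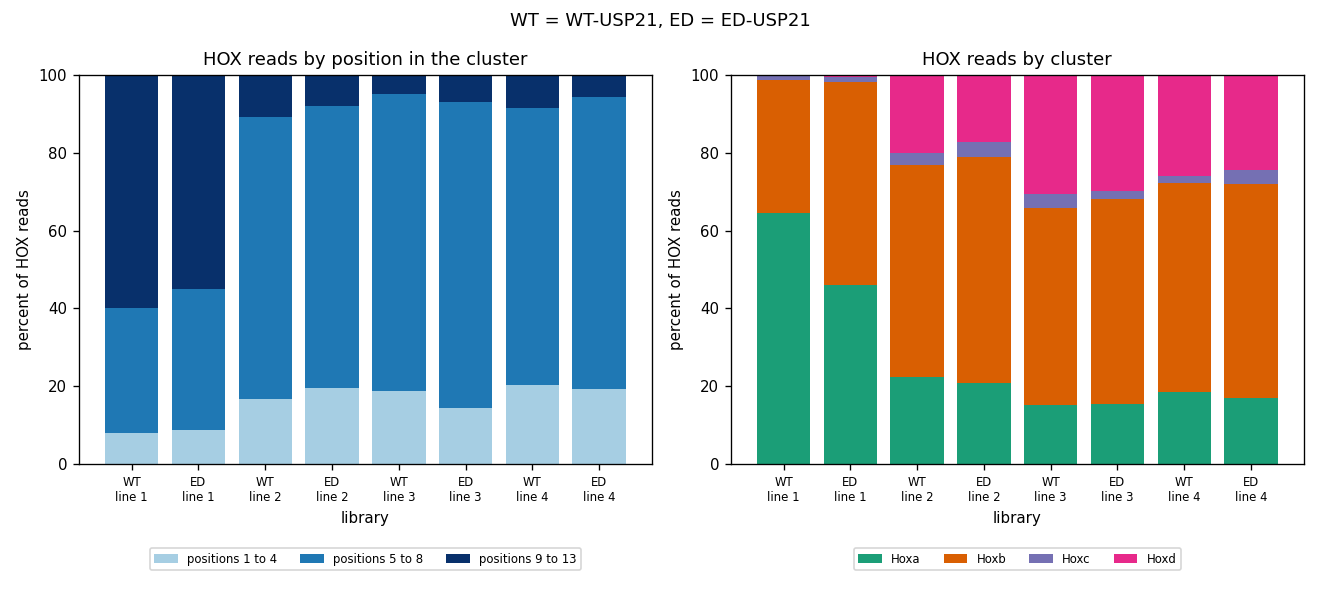
Percent of HOX reads by position group (left) and by cluster (right) in each library, as stacked bars with WT-USP21 left of ED-USP21 in each line. Posterior genes take 59.8% and 55.0% in line 1 and at most 10.9% elsewhere, and the Hoxd part of the bar is nearly missing in line 1.

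Hoxa13, which is needed for distal limb, genital and hindgut development, separated line 1 from the others. It stood at 4.36, 0.0198, 0.0105 and 0.0232 CPM with WT-USP21 (401, 2, 1 and 2 reads), against 2.73, 0.0135, 0 and 0.0257 CPM with ED-USP21 (284, 1, 0 and 2 reads). Every library of lines 2 to 4 was at or under the floor of 3 reads. Over both libraries, line 1 exceeded line 2 by 204-fold (95% counting interval 69.4 to 990), line 3 by 659-fold (118 to 26050) and line 4 by 143-fold (55.7 to 527). Its neighbour Hoxa11, a gene of the forearm and uterus and named here after its values were seen, had 25, 4, 0 and 1 reads with WT-USP21, against 242, 0, 1 and 0 reads with ED-USP21. Line 1 was again the one line with more than 4 reads in a library, though its WT-USP21 library was far below its ED-USP21 library. By exon annotation 34.98% of Hoxa11 overlaps the antisense RNA gene Hoxa11os, which had 20, 0, 0 and 0 reads with WT-USP21 and 156, 1, 0 and 0 reads with ED-USP21, and whether reads were counted by strand is not stated, so reads of the pair cannot be told apart.

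Hoxd8, a trunk gene of the Hoxd cluster, ran the other way. It stood at 0.0109, 4.16, 3.61 and 4.15 CPM with WT-USP21 (1, 419, 344 and 357 reads), against 0.0385, 2.93, 3.10 and 3.20 CPM with ED-USP21 (4, 217, 288 and 249 reads). The 6 libraries of lines 2 to 4 kept within 2.93 to 4.16 CPM, and line 1 was near the floor in both. Line 1 over line 2 was 0.00702 (0.00227 to 0.0165), over line 3 0.00760 and over line 4 0.00690. Hoxd3, a gene of the neck vertebrae, shared part of this pattern, at 0.0217, 1.08, 0.336 and 1.04 CPM with WT-USP21, against 0.260, 1.15, 0.462 and 0.734 CPM with ED-USP21. Line 1 was lowest with either construct, at 0.133 (0.0870 to 0.198) of the line 2 level, 0.372 (0.233 to 0.578) of line 3 and 0.165 (0.107 to 0.247) of line 4. Because 62.8% of the Hoxd3 exon length overlaps other genes, its reads may not be its own, whereas Hoxa10, Hoxa13, Hoxb6, Hoxb7, Hoxb9 and Hoxd8 overlap none.

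The promoters of the 3 genes that set line 1 apart are shown for their CpG content, since CpG-rich promoters are the usual sites of Polycomb binding. Each sequence is RefSeq's, build GRCm38.p6, from 250 bases before to 50 after the start, 5′ to 3′ on the gene's strand, and capitals mark each CpG.
Hoxa13 (chr6:52260831-52261130, minus strand): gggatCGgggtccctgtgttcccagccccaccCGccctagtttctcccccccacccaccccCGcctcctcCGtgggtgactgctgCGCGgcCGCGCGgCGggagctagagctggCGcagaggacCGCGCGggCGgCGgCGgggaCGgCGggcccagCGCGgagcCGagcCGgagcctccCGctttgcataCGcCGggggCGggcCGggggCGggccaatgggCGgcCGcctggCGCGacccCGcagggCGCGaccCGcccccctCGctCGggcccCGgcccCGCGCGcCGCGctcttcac
Hoxa11 (chr6:52245761-52246060, minus strand): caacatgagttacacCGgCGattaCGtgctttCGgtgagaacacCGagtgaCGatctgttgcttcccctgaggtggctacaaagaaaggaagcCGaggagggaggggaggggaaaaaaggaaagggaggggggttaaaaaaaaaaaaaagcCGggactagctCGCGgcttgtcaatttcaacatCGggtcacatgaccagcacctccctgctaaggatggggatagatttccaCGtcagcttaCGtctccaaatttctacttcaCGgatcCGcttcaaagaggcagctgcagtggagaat
Hoxd8 (chr2:74704365-74704664, plus strand): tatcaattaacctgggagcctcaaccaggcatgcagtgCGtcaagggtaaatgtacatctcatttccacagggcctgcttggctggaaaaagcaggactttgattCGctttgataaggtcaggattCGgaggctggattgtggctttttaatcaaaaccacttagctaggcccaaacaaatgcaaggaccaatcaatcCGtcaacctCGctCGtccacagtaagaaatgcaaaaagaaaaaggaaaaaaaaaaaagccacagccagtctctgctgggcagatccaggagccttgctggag
The Hoxa13 promoter holds 45 CpGs, a number that 1.93% of the 32851 promoters in the table reach or pass. The Hoxa11 promoter holds 15 (34.6% reach or pass it) and the Hoxd8 promoter 6 (56.4%). The table matched 21 of the 38 members with 23 promoters, whose median was 15 CpGs against 7 over all promoters. The retinoid receptor half-site AGGTCA, searched on both strands, which cannot share a base with a CpG, is in the Hoxd8 promoter but not in those of Hoxa13 and Hoxa11. It is in 6 of the 23 member promoters (26.1%) and in 16.3% of all promoters. These matches describe letters and not sites.

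Among the other posterior genes, Hoxa10, known from the uterus and the lumbar spine, was expressed in lines 1 and 2. It stood at 3.95, 1.23, 0.168 and 0.824 CPM with WT-USP21, against 10.1, 1.24, 0.441 and 0.618 CPM with ED-USP21. Line 1 was highest and line 3 lowest with each construct. Hoxb9, a gene of the ribs and mammary gland named after its values were seen, stood at 0.945, 0.298, 0.0944 and 0.174 CPM with WT-USP21, against 12.2, 0.0945, 0.0968 and 0.0386 CPM with ED-USP21. Hoxa9, a blood progenitor and leukaemia gene likewise named after its values were seen, stood at 0.695, 0.169, 0.0420 and 0.255 CPM with WT-USP21, against 5.63, 0.189, 0 and 0.0386 CPM with ED-USP21. Line 1 was highest with each construct for both genes, and its ED-USP21 library held nearly all of the excess. No gene of the Hoxd cluster beyond Hoxd8 passed 4 reads, and among the posterior Hoxc genes Hoxc9 had the highest value, 0.250 CPM.

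Of the central genes, Hoxb6 and Hoxb7 alone were expressed in all 4 lines by the 1 CPM rule, and Hoxa6 joined them at 1 TPM. Hoxa7 was expressed in lines 1 and 2, Hoxb5 in line 2, and Hoxd8, described above, in lines 2 to 4. Hoxb6, a gene of the lateral mesoderm, stood at 1.78, 5.64, 1.59 and 3.86 CPM with WT-USP21, against 5.96, 5.36, 1.70 and 3.23 CPM with ED-USP21. Hoxb7, active in the nephric duct, stood at 1.53, 3.83, 2.14 and 2.86 CPM with WT-USP21, against 6.68, 3.35, 2.66 and 2.51 CPM with ED-USP21. Apart from line 1, where the constructs lay far apart, the level of each was similar in both libraries of a line. Hoxa7, a trunk gene, stood at 1.04, 1.25, 0.357 and 0.720 CPM with WT-USP21, against 4.24, 1.04, 0.452 and 0.605 CPM with ED-USP21. Hoxb5, which acts in the enteric nervous system, stood at 0.380, 1.17, 0.598 and 0.964 CPM with WT-USP21, against 1.49, 1.59, 0.355 and 0.837 CPM with ED-USP21. Line 3 was the lowest line for Hoxa7 with either construct, and for Hoxb5 the lowest library was line 3 with ED-USP21. Of the anterior genes, Hoxb4, known from blood stem cells, reached the threshold in lines 2 and 4, at 0.478, 1.65, 0.871 and 1.22 CPM with WT-USP21, against 2.02, 1.78, 0.398 and 1.26 CPM with ED-USP21. Line 1 held both the highest library of Hoxb4, with ED-USP21, and one of the lowest, with WT-USP21. Of the remaining tested members, Hoxa2 lay within 0.0543 to 0.268 CPM and Hoxa3 within 0.0215 to 0.481 CPM over the 8 libraries. Hoxa5, which acts in the lung, lay within 0.172 to 1.26 CPM and Hoxb8 within 0.185 to 1.28 CPM, both highest in the ED-USP21 library of line 1. Hoxa4 had at most 10 reads and Hoxb2 at most 34, again in that library. The Hoxc cluster stayed low throughout, with 0.527 CPM of Hoxc6 as its highest value.

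Per exon length, where levels of different genes can be set side by side, the leading genes changed order between lines. In RPKM (reads scaled to library size and exon length, here the mean of both libraries of a line), line 1 had Hoxb7 at 2.66, Hoxb9 at 2.55, Hoxa10 at 2.14, Hoxb6 at 1.97 and Hoxa13 at 1.43. Line 2 had Hoxb6 at 2.80, Hoxb7 at 2.32 and Hoxd8 at 1.29 RPKM. Line 3 had Hoxb7 at 1.55, Hoxd8 at 1.22 and Hoxb6 at 0.838 RPKM, and line 4 had Hoxb6 at 1.80, Hoxb7 at 1.74 and Hoxd8 at 1.34 RPKM. The same 3 genes thus led in lines 2, 3 and 4, followed by Hoxa6 at 1.16, 0.463 and 0.581 RPKM. In line 1 the order is loose: Hoxb9 was at 0.367 RPKM with WT-USP21 against 4.74 RPKM with ED-USP21, a range that covers the other 4 genes.

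**Figure D3:**
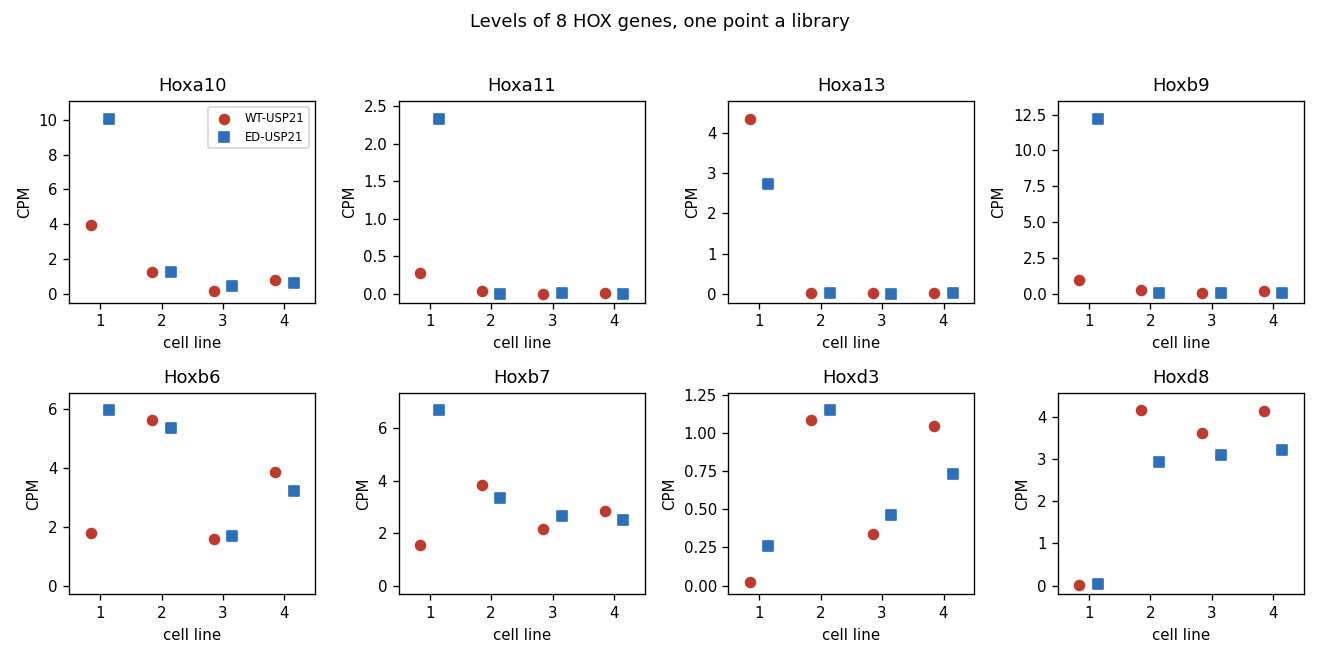
Level in CPM (linear axes, each starting near 0) of 8 HOX genes in lines 1 to 4, 1 point per library, circles for WT-USP21 and squares for ED-USP21. Hoxa13 and Hoxa11 are off the floor in line 1 alone, Hoxd8 is on the floor in line 1 alone, and for Hoxb9 the ED-USP21 library of line 1 stands at 12.2 CPM, above every other library.

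Levels were compared between the 4 lines with the construct in the model (edgeR's quasi-likelihood test, Benjamini-Hochberg adjustment over all 16192 genes tested, called under 0.05). Of all genes, 24.8% were called, and of the 19 members tested 3 were (15.8%): Hoxa10 (edgeR adjusted p = 0.00724), Hoxb9 (0.0481) and Hoxd8 (0.00168). The share of HOX genes called was thus not above that of all genes. Hoxa9 missed the threshold (edgeR adjusted p = 0.0557), as did Hoxa7 (0.0758), Hoxd3 (0.105), Hoxb6 (0.148) and Hoxb7 (0.712). Hoxa13 and Hoxa11 were outside this test because the filter removed them. With no filter 7 of 33 members were called (21.2%, against 16.4% of all genes), among them Hoxa13 (edgeR adjusted p = 2.02e-05) and Hoxa11 (0.00741). DESeq2 called 9 of 23 members (39.1%, against 36% of all genes). Without line 1, edgeR called 0 of 18 members, against 0.398% of all genes (65 genes), and 8 of the 18 had an unadjusted p under 0.05, against 16.7% of all genes. Hoxd8 then had an edgeR adjusted p of 0.913 and Hoxa10 of 0.209. Hoxb9 did not pass the filter without line 1. It thus entered the test of the 4 lines through the line where it was high, which limits what its call can show. The Hoxb9 call was lost when line 2, 3 or 4 was left out (edgeR adjusted p = 0.0790, 0.118 and 0.0613). It was also lost with limma (adjusted p = 0.0683), with upper quartile scaling in edgeR (0.0518) and with a minimum mean of 1 CPM in edgeR (0.0530). The line and the culture it was grown in cannot be told apart here.

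The other question was whether WT-USP21 and ED-USP21 cells of the same line differed in HOX levels. Within lines, edgeR called 0 of the 19 members, against 0.0247% of all genes (4 of 16192), and 0 members had an unadjusted p under 0.05, against 8.28% of all genes. Without the line in the model the count was again 0, against 0% of all genes called, and DESeq2 and limma called 0 members in either model. The members with the smallest p did not pass: for Hoxa10 the log2 value of WT-USP21 minus ED-USP21 was -0.57 with a standard error (SE) of 0.36 (edgeR adjusted p = 0.766). Hoxa6, a trunk gene, had 0.304, 1.14, 0.336 and 0.488 CPM with WT-USP21, against 1.31, 0.891, 0.473 and 0.528 CPM with ED-USP21, which is -0.56 on the log2 scale within lines (SE 0.44, edgeR adjusted p = 0.824). Hoxb3, a hindbrain gene, had 0.532, 0.466, 0.483 and 0.836 CPM with WT-USP21, against 1.56, 0.770, 0.548 and 0.515 CPM with ED-USP21, or -0.45 on that scale (SE 0.40, edgeR adjusted p = 0.849). For both, the groups overlapped and the highest library was that of line 1 with ED-USP21. Hoxb7, whose values are given above, had -0.48 (SE 0.42, edgeR adjusted p = 0.842). The precision was low, with a median SE of 0.505 over the tested members against 0.123 over all genes. Of the 19 members 14 had a negative and 5 a positive log2 difference, where 51.3% of all genes had a negative one. The members' median was -0.34 against -0.0044 over all genes, and 0 members had the same sign in each of the 4 lines.

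The 4 lines did not move alike. In line 1 all 19 tested members were lower with WT-USP21, with a median log2 difference of -1.999, against 0.012 over all genes. There 17 of the 19 (89.5%) were 2-fold or more lower with WT-USP21, against 3.3% of all genes; the exceptions were Hoxa2 (-0.74) and Hoxd8 (-0.88, from 1 and 4 reads). In lines 2, 3 and 4 the tested members were lower with WT-USP21 in 8, 8 and 3 cases and higher in 11, 11 and 16, with median log2 differences of 0.072, 0.30 and 0.37. Among these 3 lines, 1 member was 2-fold or more lower with WT-USP21, Hoxa10 in line 3 (5.26% of the 19). Of all genes 2.2% were in line 3, 4.92% in line 2 and 5.34% in line 4. Members 2-fold or more higher with WT-USP21 numbered 0 for line 1 (against 6.06% of all genes) and 3 for line 2 (15.8%, against 3.31%). They numbered 6 for line 3 (31.6%, against 5.01%) and 4 for line 4 (21.1%, against 5.27%). The tested members were less precise than all genes (median SE 0.505 against 0.123 within lines), which limits each of these comparisons, that of line 1 included.

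**Figure D4:**
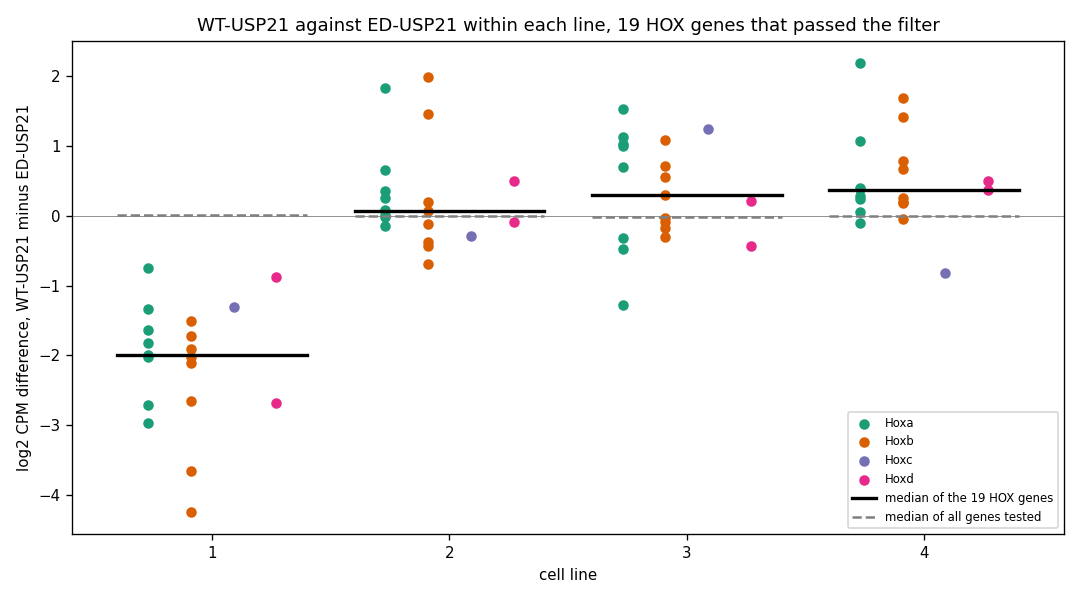
Log2 difference in CPM, WT-USP21 minus ED-USP21, of the 19 tested HOX genes in each line, 1 point per gene and line coloured by cluster, with a solid bar at the median of the 19 genes and a dashed bar at the median of all genes tested. In line 1 every point lies below 0, with a median of -1.999, and in lines 2 to 4 the points lie on both sides of 0.

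The size of the line 1 difference varied between genes, and a relation to position was not tested. Along the tested Hoxb genes, from Hoxb3 to Hoxb9 and then Hoxb13, the log2 difference was -1.51, -2.03, -1.91, -1.73, -2.11, -2.65, -3.66 and -4.25. It was thus largest at the posterior end of these, though Hoxb2, which did not pass the filter, had -3.98. In Hoxa that order was not kept, with Hoxa5 at -2.71, Hoxa9 at -2.98, Hoxa10 at -1.34 and Hoxa13 at 0.67. Hoxb13, a prostate gene named after its values were seen, had 4 reads with WT-USP21 against 127 with ED-USP21 in line 1, a ratio of 0.0355 (95% counting interval 0.00954 to 0.0933). Hoxb9 stood at 0.0774 (0.0616 to 0.0963) of its ED-USP21 level, Hoxa11 at 0.117 (0.0740 to 0.176) and Hoxa9 at 0.123 (0.0938 to 0.160). Hoxb7 stood at 0.229 (0.190 to 0.275), Hoxa7 at 0.246 (0.195 to 0.308), Hoxb6 at 0.299 (0.250 to 0.356) and Hoxa10 at 0.393 (0.348 to 0.443). Low ratios were not confined to posterior genes. Hoxd3 stood at 0.0836 (0.00963 to 0.333), Hoxa5 at 0.138 (0.0765 to 0.232) and Hoxb8 at 0.144 (0.0816 to 0.240). Hoxb2 had 0 reads with WT-USP21 against 34 with ED-USP21. Hoxa13 went the other way, at 1.59 (1.37 to 1.86) times its ED-USP21 level, so the posterior end of the Hoxa cluster held both a gene far lower and a gene higher with WT-USP21. In the ED-USP21 library of line 1, 15 members reached 1 CPM, 7 of Hoxa and 8 of Hoxb, against 5 in its WT-USP21 library. These 2 libraries also differed, with WT-USP21 against ED-USP21, in Usp21 (147 against 1657 CPM) and in the share of counts in no gene (13.2% against 11.4%). Summed markers were 2.11 against 2.67 CPM for acinar cells, 7.26 against 7.84 CPM for fibroblasts, 6.19 against 5.15 CPM for leukocytes and 2.42 against 0.674 CPM for endothelium. The acinar sum was nearly all Cela1 (2.07 against 2.67 CPM) and the leukocyte sum nearly all Cd68 (5.95 against 4.86 CPM). The endothelial sum was mostly Cdh5 (2.23 against 0.385 CPM). Every other acinar, leukocyte and endothelial marker was at most 0.135 CPM in these 2 libraries, so the sums do not measure cell content. The part of these differences in the HOX difference was not tested. Fewer cells with a gene on and less RNA per cell cannot be told apart in bulk RNA.

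Without line 1, the within-line comparison called 746 of 16326 genes and 0 of 18 members. Hoxb13 then had the smallest p, with 0.764, 0.294 and 0.314 CPM with WT-USP21 in lines 2 to 4, against 0.176, 0.194 and 0.103 CPM with ED-USP21, higher with WT-USP21 in 3 of 3 lines (log2 difference 1.44, SE 0.46, edgeR adjusted p = 0.163). Hoxd8 was next, also higher in 3 of 3 lines by 0.50, 0.22 and 0.37 on the log2 scale (pooled 0.37, SE 0.14, edgeR adjusted p = 0.245). Neither passed. Without line 1, 15 of the 18 members had a positive log2 difference, where 5 of 19 did with it. Hoxb9 is in the second count only. The share of all genes with a positive difference without line 1 is not given here, so the counts are no result about the HOX genes.

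The genes that work with or upstream of HOX genes were compared as lists, and 0 members of any list were called between the constructs within lines by edgeR. The HOX cofactors of the Pbx, Meis and Pknox families, homeodomain proteins that bind DNA beside HOX proteins, had 8 members tested, a median log2 difference of 0.012 and 1 unadjusted p under 0.05. That was Meis3, at 2.36, 2.08, 1.01 and 2.53 CPM with WT-USP21, against 1.18, 0.432, 0.527 and 0.631 CPM with ED-USP21. The WT-USP21 library was the higher one in 4 of 4 lines, by 1.54 on the log2 scale (SE 0.31), and the difference did not pass (edgeR adjusted p = 0.273). Between lines 2 of the 8 cofactors were called (25.0%). Meis1 was highest in line 1, at 7.996, 3.59, 3.04 and 3.11 CPM with WT-USP21, against 8.81, 2.97, 2.98 and 2.99 CPM with ED-USP21 (edgeR adjusted p = 0.00588).

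Of the ParaHox and related homeobox genes, 3 of 13 were tested and 1 was called between lines. Cdx2, an intestinal factor that activates central and posterior HOX genes in the mouse embryo, stood at 30.4, 7.78, 3.83 and 5.69 CPM with WT-USP21, against 29.1, 9.26, 6.97 and 8.56 CPM with ED-USP21. Both libraries of line 1 were above the other 6 (edgeR adjusted p = 0.00284 between lines), and the construct difference within lines was -0.40 (SE 0.16, edgeR adjusted p = 0.587). Pdx1, the pancreatic ParaHox gene, stood at 42.0, 50.8, 47.5 and 48.6 CPM with WT-USP21, against 36.6, 61.0, 47.0 and 50.2 CPM with ED-USP21, and did not pass between lines (edgeR adjusted p = 0.0882). The list's median log2 difference was -0.40.

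The Polycomb list, whose products keep HOX genes silent, had 17 of 17 members tested, a median log2 difference of -0.0080, 0 called and 0 at an unadjusted p under 0.05 between constructs. Ezh2, its histone methyltransferase, had the smallest p (log2 difference 0.26, SE 0.14, edgeR adjusted p = 0.723). Between lines 3 of the 17 were called (17.6%), with Jarid2, an accessory subunit, at 18.8, 24.3, 28.7 and 25.9 CPM with WT-USP21, against 16.8, 25.3, 27.7 and 26.0 CPM with ED-USP21 (edgeR adjusted p = 0.0172). Line 1 was lowest with each construct. The list of HOX activators (trithorax group proteins and H3K27 demethylases) had 10 members tested, a median log2 difference of -0.020 and 0 called between constructs, while 2 were called between lines (20%). Ash2l, a core subunit of the H3K4 methyltransferases, stood at 105, 61.7, 61.7 and 60.5 CPM with WT-USP21, against 111, 56.2, 58.4 and 58.4 CPM with ED-USP21 (edgeR adjusted p = 0.00259).

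Retinoic acid induces HOX genes through its nuclear receptors, and the list of those receptors and of the enzymes of retinoid turnover had 10 members tested, a median log2 difference of 0.0075 and 0 called between constructs. The smallest p was that of the receptor Rxra (log2 difference -0.18, SE 0.05, edgeR adjusted p = 0.426), followed by Cyp26b1, which breaks retinoic acid down (-1.21, SE 0.45, 0.552). Between lines 3 of the 10 were called (30.0%). Aldh1a1, which makes retinoic acid, stood at 1.097, 9.67, 22.3 and 15.6 CPM with WT-USP21, against 1.41, 13.8, 14.4 and 13.2 CPM with ED-USP21 (edgeR adjusted p = 0.00342). Aldh1a3, which does the same, stood at 3.39, 21.3, 20.7 and 15.5 CPM with WT-USP21, against 1.41, 13.9, 25.5 and 15.2 CPM with ED-USP21 (edgeR adjusted p = 0.00928). Both were lowest in line 1 with each construct. Of the RNA genes inside the clusters 1 passed the filter, Hoxb3os, at -0.38 on the log2 scale (SE 0.38, edgeR adjusted p = 0.866); it overlaps Hoxb3 over 52.9% of that gene's exon length. Over all genes 24.8% were called between lines, and the lists hold too few members to be set against that share.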

How the data were processed

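The deposited values are counts, whole numbers of reads per gene that the authors did not normalise, in 8 libraries of total RNA. The tools named in the submitters' processing notes are HTSeq, STAR, TopHat, Cufflinks and CASAVA, with build mm9; the sources used here give no role, version or strand setting. The 3 rows that name no gene stayed out of library sizes and tests; reads outside genes were 11.4% to 20.6% of counts and the other 2 held 0 reads. Reads of overlapping genes cannot be separated.

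Depth was 72828184 to 107551210 gene counts a library. Log2 differences (WT-USP21 minus ED-USP21) and p-values came from edgeR 4.0.16 (quasi-likelihood test, TMM scaling, filterByExpr at its defaults) under R 4.3.3, with Benjamini-Hochberg adjustment across the 16192 genes that passed. The 3 models were the construct alone, the construct with the line as a block, and the lines with the construct as a term. CPM used TMM-adjusted totals, and log2 CPM within a line used a prior count of 2. Counting intervals are 95% exact intervals from read counts (scipy 1.17.1). RPKM used exon lengths of GENCODE release M21, a later build than mm9; no coordinates of the counts are given, and the RefSeq promoters carry their own build. DESeq2 1.42.0, limma 3.58.1, other scalings and filters, and leaving out each line were alternatives.

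The line numbers pair the libraries, since each number is 1 cell line, per the labels. Deviations of paired libraries from group means correlated across genes at 0.770, 0.503, 0.468 and 0.347 in lines 1 to 4. Correlations between libraries of different lines are not given here, so these values do not test the pairing. Whether a line is 1 clone is not stated. With the construct alone in the model, p-values rest on the spread between the libraries of a group, each from another line. With the line also in the model, they rest on the spread left after line and construct. Either way they speak of these 4 lines and their cultures only. The members and gene lists were chosen with earlier results of these data known. Members given library by library were those at 1 CPM or more in both libraries of at least 1 line, plus the 4 with the smallest p within lines; of each list, up to 4 with the smallest p within lines and up to 2 between lines. Some genes that these rules cover are not reported here.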

Additional observations from a re-analysis of the deposited data

Results flagged for a closer look

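Of 34 groups of 4 libraries examined, 12 had a library far from the other 3, and in each case it was a library of line 1. Chance gives about 1 in 20 for groups not chosen by their values. Hoxa9, Hoxa11 and Hoxb9 were named after their values were seen, and Hoxa7, Hoxa10, Hoxa13 and Hoxd8 by their levels in these lines. Of the position groups and clusters, only positions 9 to 13 and Hoxd were examined. The groups also share libraries, so the count is not to be read against that share. The share of HOX reads at positions 9 to 13 was 59.8% in the WT-USP21 library of line 1 (other WT-USP21 libraries 4.95% to 10.9%) and 55.0% in its ED-USP21 library (others 5.68% to 8.14%). Hoxa13 was high at 4.36 CPM with WT-USP21 (others 0.0105 to 0.0232) and 2.73 CPM with ED-USP21 (others 0 to 0.0257). Hoxa11 was high at 0.272 CPM with WT-USP21 (others 0 to 0.0397) and 2.33 CPM with ED-USP21 (others 0 to 0.0108). Hoxd8 was low at 0.0109 CPM with WT-USP21 (others 3.61 to 4.16) and 0.0385 CPM with ED-USP21 (others 2.93 to 3.20). In the ED-USP21 group alone, line 1 was also high for Hoxa7 (4.24 CPM, others 0.452 to 1.04), Hoxa9 (5.63, others 0 to 0.189), Hoxa10 (10.1, others 0.441 to 1.24) and Hoxb9 (12.2, others 0.0386 to 0.0968).

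Among 12 genes examined, the log2 difference WT-USP21 minus ED-USP21 had one sign in both FVB/C57Bl6 lines and the other sign in both C57BL/6 lines for 2. Over all 19 tested HOX genes there were 3 (15.8%), Hoxb8 being the third, against 9.78% of all genes tested, so the count is no result about the HOX genes. Hoxa9 averaged -1.56 in the FVB/C57Bl6 lines (-2.98 in line 1 and -0.15 in line 2) and 1.86 in the C57BL/6 lines (1.53 in line 3 and 2.19 in line 4). Hoxb5 averaged -1.18 in the FVB/C57Bl6 lines (-1.91 and -0.44) and 0.46 in the C57BL/6 lines (0.72 and 0.20). These differences were not tested.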

How the results depend on the processing

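HOX genes called between the constructs numbered 0 with and without the replicate block, in every alternative run and without each line. For all genes, the model without the block called 0, against 64 with DESeq2, 3 with limma, 4 with the replicate block, and 0 to 383 without each line in turn (383 without line 1). Within lines the count was 4, against 407 with DESeq2, 0 with a minimum mean of 1 CPM, 58 with no filter, 0 with no replicate block, and 0 to 746 without each line (746 without line 1). Between lines it was 4019, against 6455 with DESeq2 and 65 to 3261 without each line (65 without line 1). HOX genes called between lines numbered 3, against 9 with DESeq2 (36% of all genes called), 7 with no filter and 0 to 3 without each line.

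Within lines, Hoxa9 turned to 0.53 with DESeq2 and 0.15 with limma, and Hoxb9 to 0.22 with DESeq2. Without each line in turn, the log2 differences ranged from -0.73 to 0.077 for Hoxa7, -1.21 to 1.39 for Hoxa9, -0.71 to 0.29 for Hoxb4, -0.71 to 0.15 for Hoxb5, -0.57 to 0.087 for Hoxb6, -0.73 to 0.030 for Hoxb7 and -0.94 to 0.0067 for Hoxd3, each turning positive without line 1. The cause was not tested.

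Expressed HOX genes in line 1 numbered 5, against 8 at 0.5 CPM, 2 at 2 CPM and 15 with 1 CPM in either library. Line 2 fell to 3 at 2 CPM, line 4 rose to 9 at 0.5 CPM, and the number in any line was 9, against 16, 5 and 17 in that order. Values of 3 reads or fewer limit what can be said of 8 members.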
